A study of Mus musculus with 26 samples.

Results

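The Myc family of transcription factors was followed across 13 culture groups through 4 of the 18193 genes measured: Myc, Mycn, Mycl and their shared partner Max. The genes were chosen by symbol. Each was represented by the probe set that carries its symbol alone and has the highest mean over all 26 arrays, and the further probe sets of Mycn and Mycl served as a check. Each group held 2 arrays of mouse cells, all male and on a C57BL/6 background. EpiLC, cells brought to an epiblast-like state, were taken at day 3 and at day 2 from a Prdm14 (+/+) line with the reporter transgenes Blimp1-mVenus and Stella-ECFP, and the labels do not give their medium. The stem cells grew on fibroblast feeders and had 1 of 3 genotypes. AGP14 cells were Prdm14(-/-) with a pPyCAG-driven transgene for Prdm14 fused to Avitag and EGFP, KO stands for Prdm14(-/-), and WT stands for unmodified Prdm14(+/+). Prdm14 is a regulator of naive pluripotency and of germ cells. All 3 genotypes were grown for 2 days in serum without LIF and in serum, and KO and WT cells also in serum with the MEK inhibitor PD0325901 (0.4 uM). Serum medium was GMEM with 20% FBS plus LIF (1000 units per ml). The 2i medium, used for all 3 genotypes, was N2B27 with the same LIF and PD0325901 concentrations plus CHIR99021 (3 uM), which inhibits GSK3.

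Myc, Mycn and Mycl are basic helix-loop-helix leucine zipper proteins that bind DNA as dimers with Max, mainly at the E-box CACGTG, and raise transcription of genes for ribosome production, nucleotide synthesis and cell growth. Max also pairs with the Mxd proteins, Mnt and Mga, which act on the same sites as repressors. In mouse embryonic stem cells Myc transcription is known to respond to LIF through STAT3 and to ERK signalling, ERK and GSK3 also set the stability of the Myc protein, and Myc and Mycn can partly replace each other in self-renewal. The arrays measured messenger RNA only.

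Promoter sequences are shown for Mycn, whose level fell most between EpiLC days, and for Max, because its start holds an E-box. They are RefSeq sequences of the mouse build GRCm38.p6, 5′ to 3′ on the strand of the gene. The Mycn stretch covers the 250 bases before the annotated start at chr12:12941837-12942086 on the minus strand. Its capitals mark 2 copies of the E2F motif TTTGGCGC and 1 reverse copy of the TCF motif CTTTGAA.
Mycn: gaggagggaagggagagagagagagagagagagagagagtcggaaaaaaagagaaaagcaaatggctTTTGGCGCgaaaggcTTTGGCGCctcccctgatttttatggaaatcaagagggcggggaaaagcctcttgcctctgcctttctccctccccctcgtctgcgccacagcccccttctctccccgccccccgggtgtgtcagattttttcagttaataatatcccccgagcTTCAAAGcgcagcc
The Max stretch covers 30 bases around the start at chr12:76962234-76962263, also on the minus strand, and its capitals mark the E-box.
Max: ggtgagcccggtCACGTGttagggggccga
Over 32851 RefSeq windows of the same kind, reaching from 250 bases before each start to 50 after it and searched on both strands, TTTGGCGC was present in 0.514%, CTTTGAA in 5.14% and CACGTG in 7.15%. The STAT motif TTCCNGGAA was present in 1.15% of the windows and had no match in those of Mycn, Mycl or Max. CACGTG had no match in the Mycn and Mycl windows. Counted by gene, 14 of the 35 Myc-activated targets and 0 of the 8 Myc-repressed targets with a window held it, against 8.09% of 27025 genes. As Myc binds mainly at this motif, a list of its targets is not independent of the motif. These matches are letters in a window, not measured binding. The Myc window is not shown.

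Every value below is a log2 signal as deposited, or a difference between group means of such signals. Base 2 was inferred for the logarithm, as the labels name none, and folds rest on that inference. Arrays had medians between 4.86 and 5.01. The standard error (SE) of a difference between 2 groups was 0.21 for Myc, 0.14 for Mycn, 0.26 for Mycl and 0.10 for Max, and a member is said to have risen or fallen only where limma's adjusted p was under 0.05 over all 18193 genes. Nothing in the labels says that the 2 arrays of a group came from different cultures. The p-values thus rest on a spread between arrays that may be technical. As a check of the labels, the probe set for Prdm14 went against the genotype in 2i and with MEK inhibitor. In 2i it read 11.24 and 11.33 on the arrays labelled KO and 9.11 and 9.30 on the AGP14 arrays, against 8.95 and 9.40 on the WT arrays. With MEK inhibitor it read 10.60 and 10.87 on the arrays labelled KO, against 9.04 and 9.48 on the WT arrays. In serum the genotypes overlapped, at 6.42 and 6.33 in AGP14, 5.40 and 6.47 in KO and 5.88 and 7.38 in WT. Only without LIF did KO (3.21 and 4.05) lie below AGP14 (5.12 and 4.86) and WT (4.28 and 5.17). Where this probe set lies relative to the deletion is not known from the labels, and KO therefore means the arrays so labelled throughout. Pluripotency markers (7 of 7 measured) averaged 10.06 to 10.18 in EpiLC and 10.46 to 12.36 in the stem cell groups. The 4 EpiLC markers averaged 10.44 to 11.39 in EpiLC and 6.04 to 6.74 in 2i. They were not particular to EpiLC, at 9.03 to 11.075 in serum and 10.28 to 11.67 in serum without LIF. All 4 rose in serum against 2i in each genotype, with median differences of 3.13 in AGP14, 5.32 in KO and 4.14 in WT. Serum and 2i cells thus also differed in these markers, and the part of that difference in the results below was not tested.

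Control probe sets divided the arrays in a way that bears on several results. The poly-A control lys, a bacterial transcript, read 13.4 to 13.5 on 12 arrays and 6.93 to 7.49 on the other 14. The high-lys groups were both EpiLC days, KO and WT in serum with MEK inhibitor, and KO and WT in 2i. The low-lys groups were AGP14 in every medium, KO and WT in serum without LIF, and KO and WT in serum. The 3′ minus 5′ difference of the actin control was 0.18 to 0.33 in high-lys arrays and 0.52 to 0.63 in low-lys arrays. Serum against 2i in KO and WT, MEK inhibitor against serum, and AGP14 against KO or WT in 2i therefore compare low-lys with high-lys arrays. Serum against 2i in AGP14, MEK inhibitor against 2i, LIF removal, KO against WT and EpiLC against 2i stay on the same side. The labels do not say what this division is. Markers of feeder fibroblasts also moved with the medium (20 of 21 measured, none at 0 on any array): their mean level was 5.50 to 5.95 in EpiLC, 6.56 to 7.53 in serum without LIF, 7.75 to 8.08 with MEK inhibitor, 6.67 to 7.25 in serum and 8.28 to 8.93 in 2i. In such bulk samples fewer cells of a type and less RNA per cell cannot be told apart. The part of feeder RNA in the results below was not tested.

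**Figure D1:**
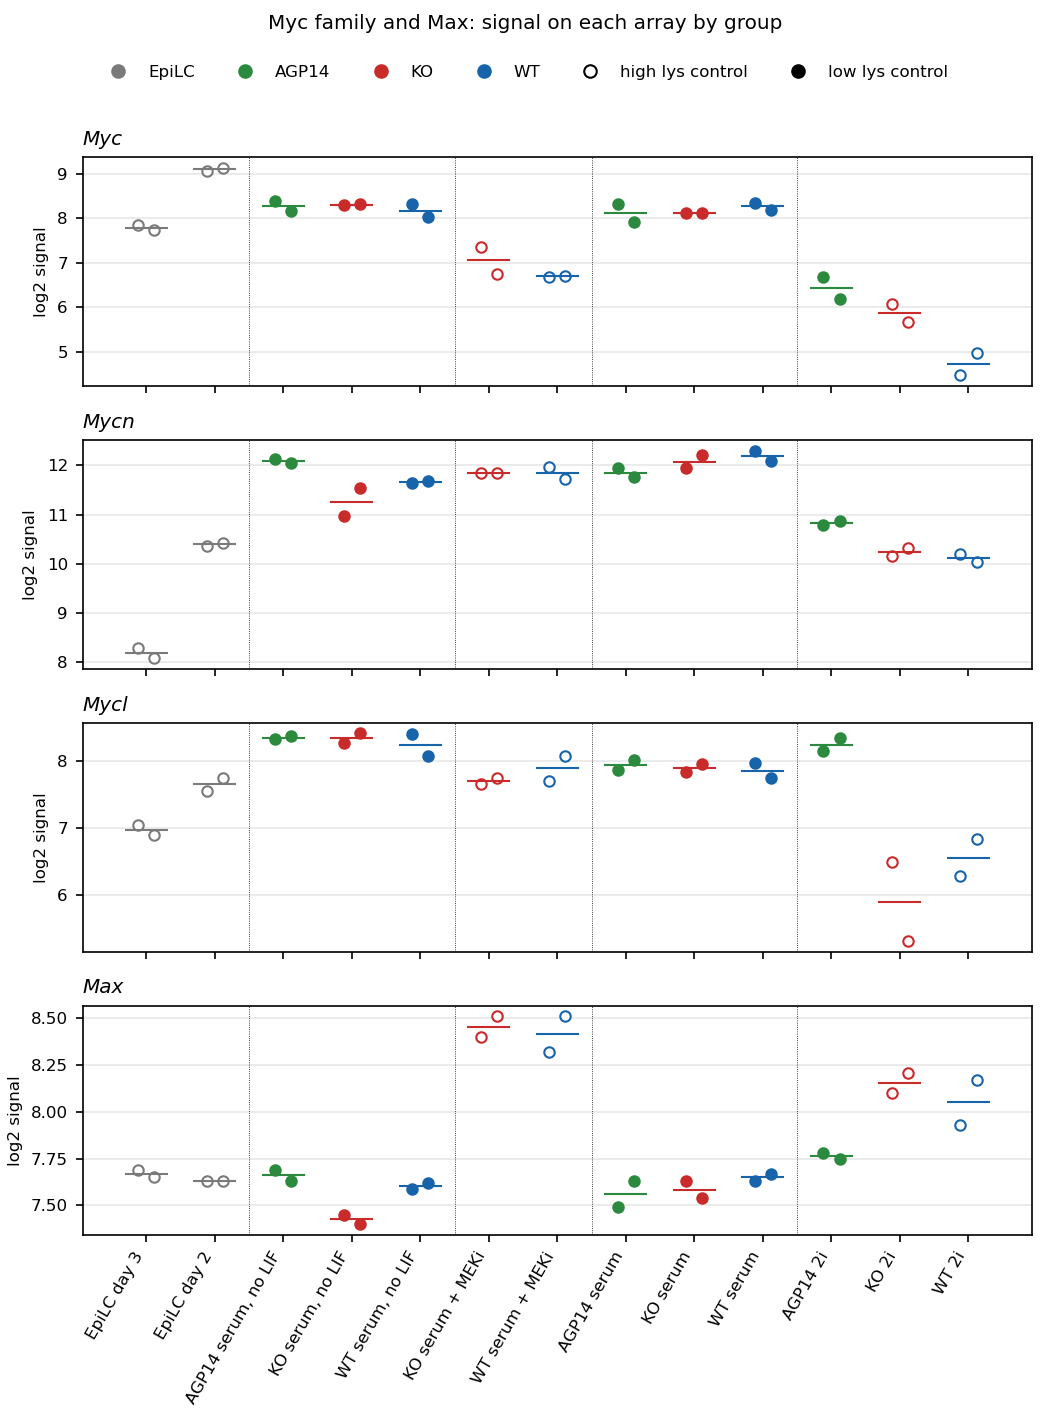
Log2 signal (vertical axes) of Myc, Mycn, Mycl and Max on each array, by group; bars are group means of 2 arrays, and open and filled points are arrays with a high and a low lys control. Myc spans 4.72 to 9.10 between group means, Mycn 8.19 to 12.20, Mycl 5.90 to 8.35 and Max 7.43 to 8.46.

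In serum against 2i, Myc and Mycn both rose in each of the 3 genotypes. Myc (probe set 1424942_a_at, the only one for this gene) read 8.33 and 7.92 in AGP14 serum arrays, against 6.69 and 6.18 in AGP14 2i arrays. In KO cells it read 8.13 and 8.12 in serum, against 6.07 and 5.67 in 2i. In WT cells it read 8.35 and 8.19 in serum, against 4.47 and 4.97 in 2i. No serum array overlapped a 2i array, and the serum values of the 3 genotypes lay close together while the 2i values were spread out, with WT lowest. The rise was 1.69 in AGP14 (adjusted p = 1.88e-05), 2.26 in KO (adjusted p = 1.33e-07) and 3.55 in WT (adjusted p = 6.02e-10), which on the inferred base is 3.23-fold, 4.77-fold and 11.7-fold. Both WT 2i values lie under 5, the mean below which probe sets are called dim here, so the 11.7-fold value rests on a dim reference. The AGP14 comparison stays among low-lys arrays, and its rise is the smallest of the 3 genotypes.

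Mycn, the family member first found amplified in neuroblastoma, followed the same direction (probe set 1417155_at). It read 11.94 and 11.76 in AGP14 serum arrays, against 10.78 and 10.86 in AGP14 2i arrays. In KO cells it read 11.95 and 12.20 in serum, against 10.16 and 10.32 in 2i, and in WT cells 12.30 and 12.09 in serum, against 10.20 and 10.04 in 2i. Every serum array lay above every 2i array. Mycn rose by 1.03 in AGP14 (adjusted p = 3.42e-05), 1.84 in KO (adjusted p = 8.65e-09) and 2.08 in WT (adjusted p = 1.97e-09). A further Mycn probe set, 1425922_a_at, gave 1.41, 1.49 and 1.90 in the same order of genotypes, all with adjusted p under the limit. The remaining one, 1425923_at, was dim (mean 3.38) and gave -0.54, 0.95 and 0.20, with no call. With the mean of the 3 probe sets the AGP14 call was lost (adjusted p = 0.171).

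Mycl (probe set 1434777_at), known for its amplification in small cell lung cancer, rose in KO and WT cells but had no call in AGP14. It read 7.87 and 8.02 in AGP14 serum arrays, against 8.15 and 8.34 in AGP14 2i arrays. In KO cells it read 7.84 and 7.95 in serum, against 6.49 and 5.31 in 2i, the widest gap between replicates of any member. In WT cells it read 7.97 and 7.74 in serum, against 6.28 and 6.83 in 2i. The difference was -0.30 in AGP14 (adjusted p = 0.496, 95% interval -0.84 to 0.24), while Mycl rose by 2.00 in KO (adjusted p = 5.36e-06) and 1.30 in WT (adjusted p = 0.000528). Both rises cross the lys division. The further Mycl probe sets were dim, with means under 5, and called neither rise, with differences of 0.07 and 0.51 in KO and of 0.65 and 0.39 in WT.

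Max moved the other way and over a narrow range (probe set 1423501_at, the only one for this gene). It read 7.49 and 7.63 in AGP14 serum arrays, against 7.78 and 7.75 in AGP14 2i arrays. In KO cells it read 7.63 and 7.54 in serum, against 8.10 and 8.21 in 2i, and in WT cells 7.63 and 7.67 in serum, against 7.93 and 8.17 in 2i. Serum arrays lay below 2i arrays in each genotype. Max fell by 0.57 in KO (adjusted p = 0.000115) and fell by 0.40 in WT (adjusted p = 0.00304), both across the lys division. Within low-lys arrays, in AGP14, the difference was -0.20 and not called (adjusted p = 0.167). The WT call was lost without WT 2i replicate 2 (-0.28, adjusted p = 0.0676). Of the 4 members, 2 changed in AGP14, where 18.2% of all genes did and 9.97% rose. All 4 changed in KO, against 35.8% of all genes with 15.8% rising, and all 4 in WT, against 34.6% with 15.2% rising.

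Whether these differences depended on genotype was tested directly. Myc rose less in KO than in WT cells, by -1.30 (SE 0.30, adjusted p = 0.0247), the only member called there, where 2.97% of all genes were. That call was lost without any 1 of 5 arrays (KO 2i replicate 1, WT 2i replicate 1, KO serum replicates 1 and 2, WT serum replicate 1), with adjusted p between 0.0685 and 0.108. Leaving out KO 2i replicate 1 instead brought Mycl past the limit (1.29, adjusted p = 0.0191), against 0.70 and no call with all arrays. Between AGP14 and WT, 3 members differed, against 13.3% of all genes: Myc by -1.86 (adjusted p = 0.000473), Mycn by -1.04 (adjusted p = 0.00148) and Mycl by -1.60 (adjusted p = 0.00639). Between AGP14 and KO, Mycn differed by -0.80 (adjusted p = 0.00868) and Mycl by -2.30 (adjusted p = 0.000336), 2 members against 14.2% of all genes. Max differed by 0.36 there without a call (adjusted p = 0.0862) and was called with the replicate block (adjusted p = 0.0403 as a random block and 0.0375 as fixed columns). The Mycn and Mycl calls did not hold on further probe sets. Mycn probe set 1425922_a_at gave -0.49 between AGP14 and WT (adjusted p = 0.277) and -0.08 between AGP14 and KO (adjusted p = 0.902). The dim Mycl probe sets gave -0.72 (adjusted p = 0.298) and -0.22 (adjusted p = 0.770) between AGP14 and WT. Between AGP14 and KO they gave -0.13 (adjusted p = 0.894) and -0.34 (adjusted p = 0.626). With the mean of probe sets the Mycn calls were lost too (adjusted p = 0.285 against WT and 0.251 against KO). The comparisons with AGP14 use its low-lys 2i arrays and the high-lys 2i arrays of the other genotypes, so genotype and the lys division cannot be told apart in them.

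With the MEK inhibitor added to serum, Myc fell in KO and WT cells. This contrast crosses the lys division in both genotypes, so the inhibitor and that division cannot be told apart in it. Mycn lay lower without a call on the probe set that represents it. Myc read 7.36 and 6.75 in KO arrays with inhibitor, against 8.13 and 8.12 in KO serum arrays. In WT cells it read 6.69 and 6.71 with inhibitor, against 8.35 and 8.19 in serum. All arrays with inhibitor lay below all serum arrays, and the fall was -1.07 in KO (adjusted p = 0.000944) and -1.57 in WT (adjusted p = 2.45e-05). Mycn read 11.85 and 11.84 in KO arrays with inhibitor, against 11.95 and 12.20 in serum, a difference of -0.23 (adjusted p = 0.256). In WT cells Mycn read 11.96 and 11.72 with inhibitor, against 12.30 and 12.09 in serum. That difference of -0.36 was not called (adjusted p = 0.0651), and was -0.48 without WT inhibitor replicate 1. The WT difference was called with the replicate number within genotype as a block (adjusted p = 0.00889 as fixed columns and 0.0234 as a random block). Mycn probe set 1425922_a_at went the other way, by 0.345 in KO (adjusted p = 0.230) and 0.075 in WT (adjusted p = 0.834). The dim probe set 1425923_at gave -1.825 in KO (adjusted p = 0.0937) and 0.325 in WT (adjusted p = 0.814). Neither further probe set gave a call, so the direction of Mycn rests on the probe set.

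Mycl read 7.66 and 7.75 in KO and 7.70 and 8.08 in WT arrays with inhibitor. It did not pass: the difference was -0.19 in KO (adjusted p = 0.665) and 0.04 in WT (adjusted p = 0.945). A dim further probe set of Mycl did rise in KO, by 1.22 (adjusted p = 0.00439). Max rose, reading 8.40 and 8.51 in KO arrays with inhibitor, against 7.63 and 7.54 in serum. In WT cells it read 8.32 and 8.51 with inhibitor, against 7.63 and 7.67 in serum. These were the 4 highest Max values of all 26 arrays, and the rise was 0.87 in KO (adjusted p = 3e-06) and 0.76 in WT (adjusted p = 1.33e-05). Myc and Max were thus the 2 members called in each genotype, against 24.5% of all genes in KO with 15% rising, and 25.4% in WT with 14.3% rising. All these differences cross the lys division. No member's response differed between KO and WT (0 of 4 called and 0 with an unadjusted p under 0.05, where limma called 0.231% of all genes). Feeder markers were higher with inhibitor too: 15 of 20 rose and 0 fell in KO, and 16 rose and 1 fell in WT.

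Serum with MEK inhibitor shares LIF and PD0325901 with 2i and lies on the same side of the lys division, and all 4 members were higher there than in 2i. The values of each array are those given above. Myc rose by 1.19 in KO (adjusted p = 0.000778) and by 1.98 in WT (adjusted p = 6.95e-06). Mycn rose by 1.60 in KO (adjusted p = 6.22e-07) and 1.72 in WT (adjusted p = 4.42e-07), close to its whole difference between serum and 2i. Mycl rose by 1.80 in KO (adjusted p = 9.15e-05) and 1.34 in WT (adjusted p = 0.00169). Max, lower in serum than in 2i, was here 0.30 higher in KO (adjusted p = 0.0473) and 0.36 higher in WT (adjusted p = 0.017). The KO call of Max was lost without any 1 of its 4 arrays (adjusted p between 0.0758 and 0.250). The WT call was lost without WT 2i replicate 1 (0.24, adjusted p = 0.202) or WT inhibitor replicate 2 (0.27, adjusted p = 0.172). All 4 members were called in both genotypes, where 13.2% of all genes were called in KO and 12.5% in WT. Feeder markers were lower than in 2i, with 12 of 20 falling in each genotype and 2 rising in KO and 4 in WT.

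**Figure D2:**
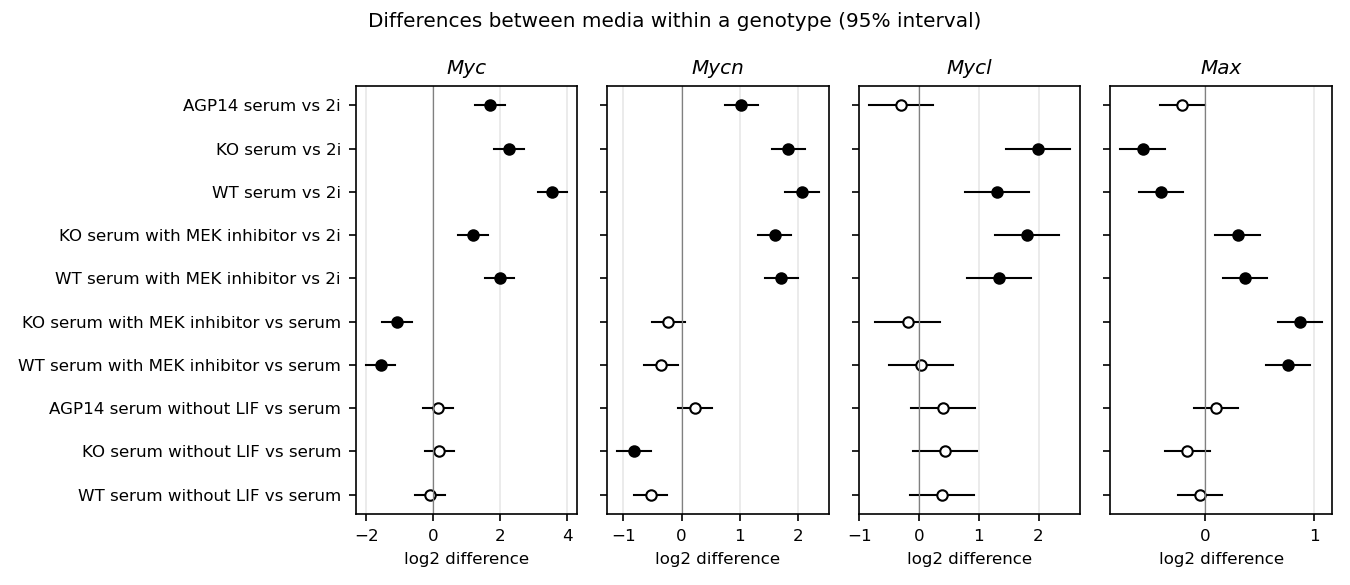
Log2 difference between media within a genotype (horizontal axes) for each member, with 95% intervals of the limma fit; filled points passed an adjusted p of 0.05. Myc and Mycn lie above 0 in serum against 2i in all 3 genotypes. Myc passed below 0 and Max above 0 with MEK inhibitor against serum in KO and WT, a contrast that crosses the lys division. The WT interval of Mycn there, -0.64 to -0.07, also lies below 0 without a call. Mycn probe set 1425922_a_at, not shown, gave 0.075 for that WT difference.

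Readouts of the signals that the media set were measured beside the members. Dusp6, a phosphatase induced by ERK, fell by 1.54 in KO (adjusted p = 2.18e-08) and by 0.90 in WT (adjusted p = 9.55e-06) when MEK inhibitor was added to serum. Spry4, an ERK feedback inhibitor, fell by 2.22 in KO (adjusted p = 0.0001) and by 2.23 in WT (adjusted p = 9.67e-05). Axin2, a target of Wnt signalling, fell in serum against 2i (-2.15 in AGP14, -1.51 in KO and -0.93 in WT), where the GSK3 inhibitor is absent. Its KO and WT values cross the lys division, as do the values of Dusp6 and Spry4 above. Socs3, a target of STAT3, fell when LIF was left out of serum, with differences of -2.48 in AGP14 (adjusted p = 7.18e-07), -1.84 in KO (adjusted p = 1.37e-05) and -2.02 in WT (adjusted p = 6.57e-06).

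Leaving LIF out of serum moved Mycn in KO cells and left Myc, Mycl and Max without a call in any genotype. Myc read 8.38 and 8.16 in AGP14, 8.29 and 8.33 in KO and 8.32 and 8.03 in WT arrays without LIF, values that lie within or beside those in serum. Its differences were 0.14, 0.18 and -0.10, with 95% intervals of -0.30 to 0.59, -0.26 to 0.63 and -0.54 to 0.35. Mycn read 10.98 and 11.53 in KO arrays without LIF, against 11.95 and 12.20 in serum, and fell by 0.82 (adjusted p = 0.00396). That call was lost without the KO replicate 1 grown without LIF (-0.54, adjusted p = 0.0832) or KO serum replicate 2 (-0.70, adjusted p = 0.078). It was also lost with the mean of probe sets (adjusted p = 0.225), while probe set 1425922_a_at gave -1.13 (adjusted p = 0.00527).

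In WT cells Mycn read 11.64 and 11.69 without LIF, against 12.30 and 12.09 in serum. The difference of -0.53 was not called (adjusted p = 0.0586). It was called with the replicate block (adjusted p = 0.00288 as fixed columns and 0.0128 as a random block) and on probe set 1425922_a_at (-0.89, adjusted p = 0.027). In AGP14 cells Mycn read 12.12 and 12.04 without LIF, against 11.94 and 11.76 in serum, a difference of 0.23 (adjusted p = 0.558). The LIF difference of Mycn differed between AGP14 and KO by 1.05 (adjusted p = 0.0492), the only member of 4 called in that test, where 0.077% of all genes were called. Without any 1 of 7 of its 8 arrays, all but KO replicate 2 grown without LIF, this call was lost (adjusted p between 0.0805 and 0.259). It was also lost on probe set 1425922_a_at (1.33, adjusted p = 0.123) and with quantile normalization (adjusted p = 0.0510). Between AGP14 and WT the corresponding difference was 0.76 (unadjusted p = 0.000957, adjusted p = 0.611).

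Mycl without LIF was 0.40, 0.44 and 0.38 above serum in AGP14, KO and WT, with no call. Its arrays without LIF read 8.08 to 8.41 and its serum arrays 7.74 to 8.02. Max differed by 0.10, -0.16 and -0.04. Called members were thus 0 of 4 in AGP14, 1 of 4 in KO and 0 of 4 in WT, against 0.302%, 1.1% and 1.5% of all genes. In WT, Mycn had an unadjusted p under 0.05, and in AGP14 no member did. For the difference of this response between KO and WT, and between AGP14 and WT, limma called 0 members and 0% of all genes, with 654 and 904 genes at an unadjusted p under 0.05. No other tool was run.

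EpiLC had the highest Myc and, by day 3, the lowest Mycn of all groups. Myc read 7.84 and 7.73 at day 3 and 9.06 and 9.14 at day 2, against 4.47 and 4.97 in WT 2i cells. Day 2 lay above every other array of the series. Myc rose there by 4.38 over WT 2i (adjusted p = 1.31e-11), which is 20.8-fold on the inferred base, from a dim reference mean of 4.72. At day 3 it fell relative to day 2 (-1.32, adjusted p = 0.000189) and was still above all 2i and MEK inhibitor arrays. Mycn read 8.29 and 8.08 at day 3 and 10.37 and 10.43 at day 2, against 10.20 and 10.04 in WT 2i. Day 2 did not differ by a call from WT 2i (0.28, adjusted p = 0.121; 95% interval -0.01 to 0.57), and day 3 fell by 2.21 from day 2 (adjusted p = 7.37e-09). Probe set 1425922_a_at gave -1.93 for the same step (adjusted p = 1.22e-06).

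Mycl read 7.04 and 6.89 at day 3 and 7.55 and 7.75 at day 2, against 6.28 and 6.83 in WT 2i. It rose by 1.10 at day 2 (adjusted p = 0.00191). The day 3 difference from day 2 of -0.68 was not called (adjusted p = 0.0748) and was called with the number within genotype as a random block (adjusted p = 0.0466), although the EpiLC replicates give only 1 pair across days. Max read 7.69 and 7.65 at day 3 and 7.63 on both arrays at day 2, against 7.93 and 8.17 in WT 2i, and fell by 0.42 at day 2 (adjusted p = 0.0017). Its day 3 difference from day 2 was 0.04 (adjusted p = 0.846). At day 2, 3 of 4 members changed, against 38.3% of all genes with 17.2% rising, and at day 3 against day 2 the count was 2 of 4, against 17.6%. The EpiLC came from another line than the 2i cells, so line and state cannot be told apart, and their feeder markers were lower (16 of 20 fell and 1 rose at day 2, median -3.08). All these arrays have a high lys control, and Max on EpiLC arrays (7.63 to 7.69) read close to the low-lys serum arrays (7.49 to 7.67). EpiLC and serum cells also differ in state and feeder markers, and the part of the lys division in the Max level was not tested.

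Called genotype differences were confined to 2i for Myc, Mycl and Max, among the media tested. AGP14 against KO or WT crosses the lys division in 2i but not in serum or serum without LIF. Genotype and that division therefore cannot be told apart in the AGP14 values in 2i. In 2i Myc read 6.69 and 6.18 in AGP14 and 6.07 and 5.67 in KO, against dim values of 4.47 and 4.97 in WT. KO lay 1.15 above WT (adjusted p = 0.00174, lost at 0.196 when only those 4 arrays were fitted). AGP14 lay 1.72 above WT (adjusted p = 1.24e-05). AGP14 lay 0.56 above KO without a call (adjusted p = 0.059), which was called with the random block (adjusted p = 0.0498), without AGP14 2i replicate 2 (0.82, adjusted p = 0.0293) and without KO 2i replicate 1 (0.76, adjusted p = 0.0401). These 3 comparisons share arrays.

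For Mycl in 2i, AGP14 arrays read 8.15 and 8.34 and KO arrays 6.49 and 5.31, against 6.28 and 6.83 in WT. AGP14 lay 2.35 above KO (adjusted p = 3.28e-06) and 1.69 above WT (adjusted p = 9.89e-05), and both comparisons cross the lys division. The dim further Mycl probe sets called neither. They gave 0.805 (adjusted p = 0.0509) and 0.34 (adjusted p = 0.405) against KO, and 0.615 (adjusted p = 0.141) and 0.21 (adjusted p = 0.633) against WT. KO differed from WT by -0.66 (adjusted p = 0.129), or by -1.25 (adjusted p = 0.00119) without KO 2i replicate 1. Mycn in AGP14 lay 0.58 above KO (adjusted p = 0.00407) and 0.70 above WT (adjusted p = 0.000978) in 2i. Probe set 1425922_a_at gave -0.18 and -0.06 for these, with no call, so the direction rests on the probe set. Max in AGP14 fell by 0.39 against KO (adjusted p = 0.00586) and by 0.28 against WT (adjusted p = 0.0372). With quantile normalization these had adjusted p of 0.113 and 0.504. The call against KO was lost without KO 2i replicate 2 (adjusted p = 0.0645), and that against WT without AGP14 2i replicate 1 (0.111) or 2 (0.152) or WT 2i replicate 2 (0.326).

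In serum and its variants the genotypes lay closer. In serum without LIF, Mycn in AGP14 was 0.82 above KO (adjusted p = 0.0004, and 1.07 on probe set 1425922_a_at), and 0.42 above WT without a call (adjusted p = 0.0591, or 0.0401 with the random block). Mycn in KO against WT was -0.41 there (adjusted p = 0.104), or -0.68 (adjusted p = 0.00855) without KO replicate 2. AGP14 against KO gave 3 of 4 members called in 2i, 0 in serum and 1 in serum without LIF, against 24.2%, 10.5% and 13.3% of all genes. AGP14 against WT gave 4, 0 and 0, against 25.4%, 6.96% and 10.7%. Of these AGP14 counts, only those in 2i cross the lys division. KO against WT gave 1 in 2i, 0 in serum, 0 without LIF and 0 with MEK inhibitor, against 9.15%, 4.17%, 4.19% and 4.08%. Where no member was called, Mycn alone had an unadjusted p under 0.05 in KO against WT without LIF and in AGP14 against WT in serum and without LIF. In the other comparisons without a called member (KO against WT in serum and with MEK inhibitor, AGP14 against KO in serum) no member had.

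**Figure D3:**
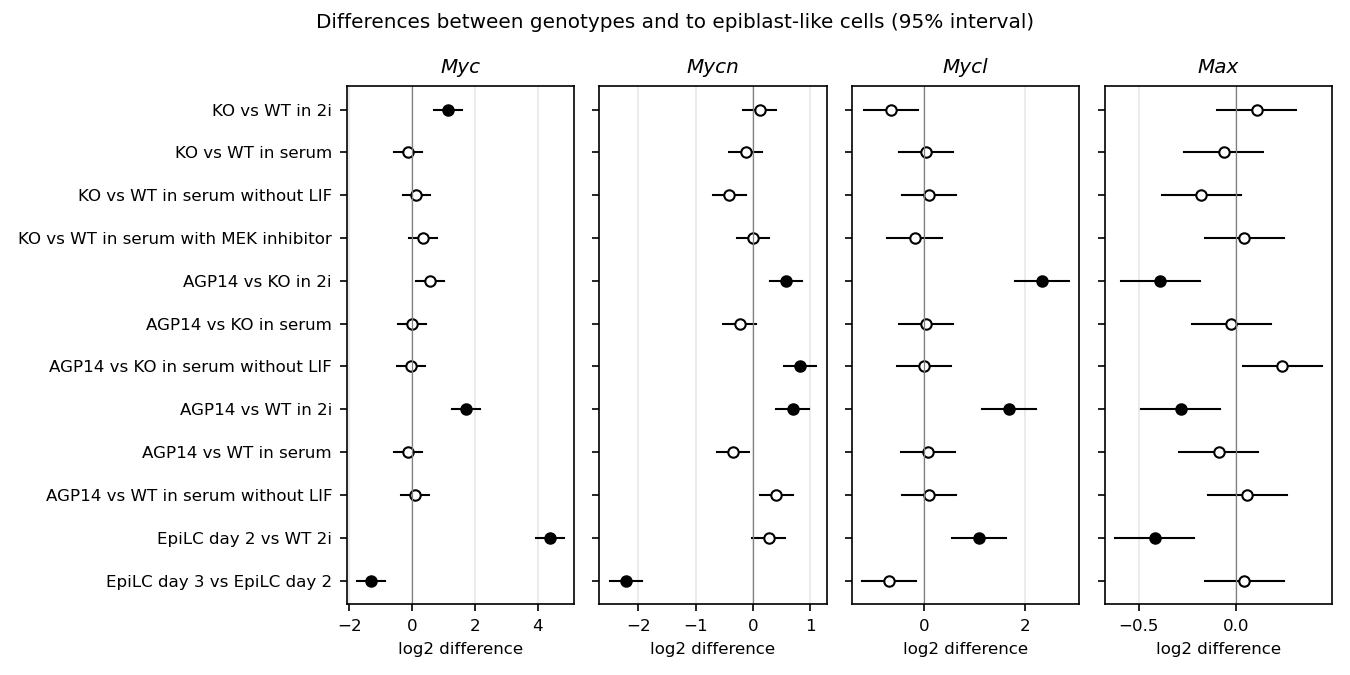
Log2 difference (horizontal axes) between genotypes within a medium, and for EpiLC, with 95% intervals of the limma fit; filled points passed an adjusted p of 0.05. The largest genotype difference is that of Mycl between AGP14 and KO in 2i, at 2.35, and Myc at EpiLC day 2 is 4.38 above WT 2i. The Mycl difference crosses the lys division and was not called on the dim further Mycl probe sets, not shown (0.805 and 0.34).

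Ordered by level, Myc group means ran from EpiLC day 2 (9.10 ± 0.06; SD, n = 2 here and below) down to WT 2i (4.72 ± 0.35). The 6 serum groups with and without LIF, from 8.31 ± 0.03 to 8.12 ± 0.01, followed EpiLC day 2 and overlapped with their neighbours, then came EpiLC day 3 (7.78 ± 0.08), the 2 MEK inhibitor groups and the 3 groups in 2i. Mycn was highest in WT serum (12.20 ± 0.15), and all serum groups lay above all 2i groups, with EpiLC day 2 (10.40 ± 0.04) between AGP14 2i and KO 2i, and EpiLC day 3 (8.19 ± 0.15) lowest. Mycl had 10 groups between 7.65 and 8.35, most of which overlapped with their neighbours, and 3 below: EpiLC day 3, WT 2i and KO 2i (5.90 ± 0.83). Max was highest with MEK inhibitor (8.46 ± 0.08 in KO and 8.42 ± 0.13 in WT), next in KO and WT 2i, and lay between 7.42 and 7.76 in the other 9 groups. Across the 13 group means Myc and Mycn had a Pearson correlation of 0.28, Myc and Mycl 0.62, Mycn and Mycl 0.63, Myc and Max -0.66, Mycl and Max -0.42 and Mycn and Max 0.01. These describe groups that share genotypes, media and the lys division.

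The genes whose 13 group means were most like those of each member were taken from 4583 genes with a mean of at least 6 and a range of group means of at least 1. For Myc they were Sox12 (Pearson correlation 0.970), Mns1, Dscc1, Pdzd4 and Ydjc (0.949). For Mycn they were Ccne2 (0.968), a cyclin of the entry into S phase, Kti12, Gid8, Slc38a2, an amino acid transporter, and Dcun1d4 (0.942). For Max they were Cdk19 (0.963), Apc, Myl6, Ldb1 and Phf3 (0.930). Those of Mycl were less alike, from Ampd2 (0.884) through Bbc3, Lmnb2 and Yars2 to Cyp39a1 (0.855).

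The rodent relatives Bmyc and Mycs moved little. Bmyc group means ran from 7.36 to 8.14, and its only call between media was a fall by 0.55 in WT serum against 2i (adjusted p = 0.0244). Mycs group means ran from 4.39 to 5.32, with no call. Of 9 genes of the Max and Mlx network, 0 changed in AGP14 serum against 2i, 4 fell in KO and 2 fell in WT, where 18.2%, 35.8% and 34.6% of all genes changed. Mxd3, a Max-binding repressor, fell in KO (-1.34, adjusted p = 8.75e-08) and in WT (-1.26, adjusted p = 2.21e-07), with -0.04 in AGP14 (adjusted p = 0.899). With MEK inhibitor against serum, 4 of the 9 rose in KO and 3 in WT, where 15% and 14.3% of all genes rose, Mxd3 by 1.17 and 1.08 and Mga by 0.81 and 0.58. Against 2i, within high-lys arrays, Mxd3 with MEK inhibitor was -0.18 in KO and -0.18 in WT, with no call. The serum against 2i and MEK inhibitor against serum contrasts of KO and WT cross the lys division, and its part in the Mxd3 differences was not tested. In EpiLC at day 2, Mnt, another Max-binding repressor, fell by 1.58 (adjusted p = 9.82e-10).

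Of 18 cofactors and turnover factors of Myc, 5 rose and 1 fell in AGP14 serum against 2i, 6 rose and 3 fell in KO, and 6 rose and 4 fell in WT, beside the same shares of all genes (18.2%, 35.8% and 34.6%). Usp28, a deubiquitinase that stabilises Myc, rose by 0.98, 1.74 and 1.48 in AGP14, KO and WT, and fell with MEK inhibitor against serum (-0.74 in KO and -0.79 in WT). Ruvbl1, an ATPase that binds Myc, rose by 0.64, 0.58 and 0.60 in serum against 2i and by 1.18 in EpiLC at day 2. Ep400, a chromatin remodeller, fell in KO (-0.70) and in WT (-0.57), with 0.12 in AGP14 and no call there. The KO and WT values of these genes between serum and 2i or MEK inhibitor cross the lys division, and the AGP14 values do not. The part of that division in these differences was not tested. Of 8 regulators of Myc transcription, 1 rose in AGP14, 2 rose and 1 fell in KO and 0 changed in WT in serum against 2i, on the same background. In EpiLC at day 2, Stat3 fell by 2.53 (adjusted p = 7.04e-11), beside Socs3, which fell by 3.88.

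Among 39 Myc-activated target genes, more rose than fell in serum against 2i. In AGP14, 13 rose and 2 fell, with a median of 0.17, or 21 rose with the replicate block as fixed columns and 7 to 12 without any 1 array (7 without AGP14 serum replicate 1). In KO, 18 rose and 4 fell (median 0.20), and in WT, 16 rose and 5 fell (median 0.13, with 8 rising with only the arrays compared). Of all genes, 9.97% rose in AGP14, 15.8% in KO and 15.2% in WT. The medians over all genes were 0.005 in AGP14, 0.010 in KO and -0.015 in WT. Odc1, which makes polyamines, rose by 0.18 in AGP14, 0.67 in KO and 0.76 in WT. Wdr43, a ribosome assembly factor, rose by 0.50, 0.62 and 0.50. Members that went the other way include Ccnd2, cyclin D2, which fell (-0.70, -1.56 and -1.38 in AGP14, KO and WT), and Dkc1, of ribosomal RNA modification, which fell too (-0.24, -0.43 and -0.46). The cell cycle kinase Cdk4 fell in KO (-0.40) and in WT (-0.62) and was 0.04 in AGP14 without a call. Serum against 2i crosses the lys division in KO and WT but not in AGP14. Where AGP14 values differ from the others, genotype and that division cannot be told apart. No target of this list was called without LIF in any genotype.

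With MEK inhibitor against serum, 6 of the list rose and 4 fell in KO, and 6 rose and 7 fell in WT. Of all genes, 24.5% changed in KO and 25.4% in WT, so these shares lay near the background. The contrast crosses the lys division in both genotypes. In KO, 8 fell with the random block, 9 with fixed columns, and 3 rose without KO serum replicate 1 or KO inhibitor replicate 1. In WT, 3 rose and 4 fell without WT serum replicate 1, and 3 rose without WT inhibitor replicate 2. Odc1 fell in KO (-0.30) and in WT (-0.36), as did Pus7, which makes pseudouridine (-0.70 and -0.67), and Wdr43 (-0.41 and -0.36). Eif4e, the cap-binding translation factor, rose by 0.38 and 0.41. In EpiLC at day 2, 17 rose and 4 fell (median 0.16), where 38.3% of all genes changed and 17.2% rose, among them Srm, of polyamine synthesis, by 0.84, Odc1 by 0.67 and Nolc1, a nucleolar protein, by 0.60. At day 3 against day 2, 3 rose and 16 fell (median -0.16; 9 fell without day 2 replicate 1 and 10 without day 3 replicate 2, and at most 1 rose without any single array), with falls in Nop2 (-0.74), Tfrc (-0.72) and Apex1 (-0.68), where 17.6% of all genes changed. Over that step 1762 of all 18193 genes fell. Myc and Mycn fell over the same step, and a link between their falls and those of the targets was not tested. Of 11 Myc-repressed targets, 2 rose and 3 fell in AGP14 serum against 2i, 3 rose and 3 fell in KO and 3 rose and 3 fell in WT, against 18.2%, 35.8% and 34.6% of all genes that changed. The cell cycle inhibitor Cdkn1a fell (-1.10, -1.06 and -1.42), while Gadd45a rose by 1.57, 1.47 and 1.04.

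**Figure D4:**
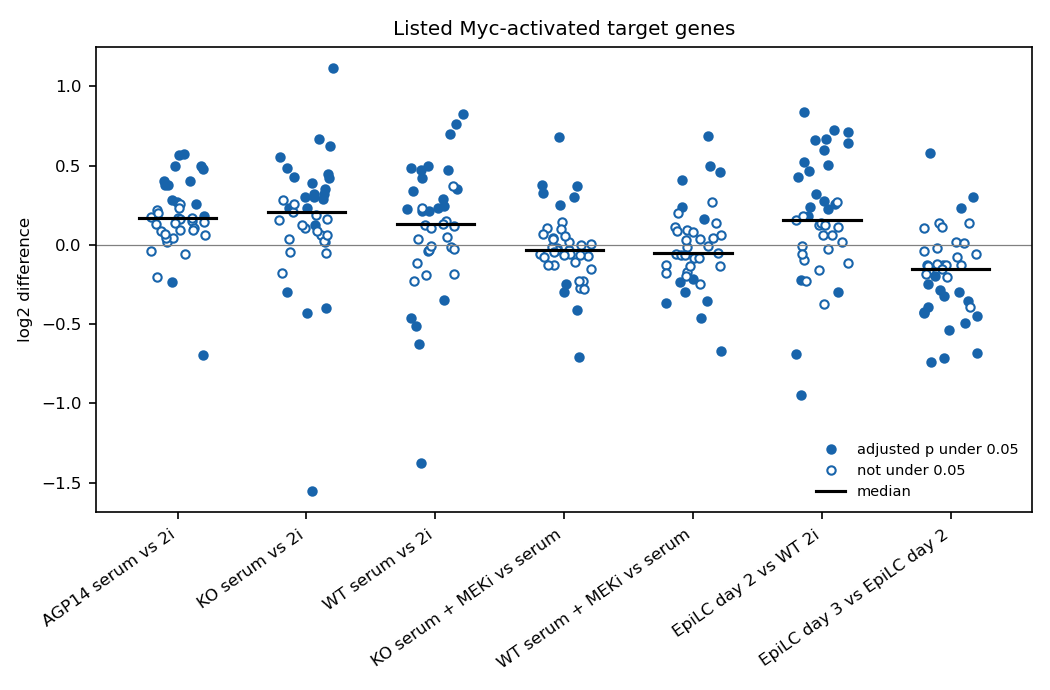
Log2 difference (vertical axis) of each of 39 Myc-activated target genes in 7 comparisons (horizontal axis); filled points passed an adjusted p of 0.05 and bars are medians. The medians lie at 0.13 to 0.20 in serum against 2i, at 0.16 in EpiLC day 2 against WT 2i and at -0.16 in day 3 against day 2.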

How the data were processed

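The authors deposited a table of log-scale values, with 45100 probe sets on each of 26 Affymetrix arrays. Per the labels' protocols, total RNA was purified on RNeasy Micro columns and labelled by the Affymetrix one-cycle assay. How background, normalization and summarisation were done is not stated in the labels. The deposited values were treated as log2, since their highest value of 13.89 lies below the top of a scanner's range in base 2. Near-equal array medians show that the arrays had been scaled together. The number of arrays limits precision.

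Of the probe sets, 34944 had 1 gene symbol in the platform annotation and 932 had several and were not used. Each of 18193 genes took its probe set with the highest mean over 26 arrays. limma 3.58.1 in R 4.3.3 fitted 1 coefficient per group (13 residual degrees of freedom) with an intensity trend. All tests were two-sided. Benjamini-Hochberg adjustment ran over all genes of a comparison, and genes were called under 0.05. Other steps ran in Python 3.11.15 (numpy 2.4.6, scipy 1.17.1, pandas 2.3.3, matplotlib 3.10.9). No normalization or filter was added in the reported fit.

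Deviations of same-numbered arrays from their group means, over 9484 genes with a mean of at least 6, correlated at 0.468 to 0.739 in KO, 0.482 to 0.779 in WT and 0.421 to 0.511 in AGP14 across media, against -0.148 to 0.160 between genotypes. Numbers therefore paired arrays within a genotype, and fits with the number within genotype as a block were run as alternatives, beside quantile normalization, the mean of probe sets, each further probe set, no intensity trend, genes with a mean under 5 left out, only the compared groups, and each array left out. The 4 tests that compare AGP14 with another genotype across media were added after the data were seen.

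Named genes were the 4 members, Bmyc and Mycs, the 5 genes most like each member, the signalling readouts, and up to 4 called genes of each list and comparison with the smallest p, plus list members given as not called, and a gene so named was also given in neighbouring comparisons. The members and lists were chosen with earlier results of these data known. List members measured were 39 of 42 activated targets, 11 of 11 repressed targets, 18 of 19 cofactors, 8 of 9 regulators and 9 of 9 network genes. The fit was tested on simulated data for WT serum against 2i with 18193 genes. Recovery was 20 of 67 at a 1.5-fold change, 38 of 67 at 2-fold and 57 of 66 at 4-fold, with 3 unchanged genes called. The simulated errors were independent, without the pairing within genotype, and few genes were changed, where 34.6% were called in the data. Recovery and false calls in the reported fit may therefore differ from these counts.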

Additional observations from a re-analysis of the deposited data

Results flagged for a closer look

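These differences between genotypes in the response to a medium passed the test of the difference itself. For serum against 2i, KO differed from WT in Myc by -1.30 (SE 0.30, adjusted p = 0.0247). AGP14 differed from WT in Myc by -1.86 (SE 0.30, adjusted p = 0.000473), in Mycn by -1.04 (SE 0.19, adjusted p = 0.00148) and in Mycl by -1.60 (SE 0.36, adjusted p = 0.00639). AGP14 differed from KO in Mycn by -0.80 (SE 0.19, adjusted p = 0.00868) and in Mycl by -2.30 (SE 0.36, adjusted p = 0.000336). On Mycn probe set 1425922_a_at these AGP14 differences were -0.49 against WT (adjusted p = 0.277) and -0.08 against KO (adjusted p = 0.902), and no further Mycl probe set called either. For LIF removal, AGP14 differed from KO in Mycn by 1.05 (SE 0.19, adjusted p = 0.0492), or by 1.33 without a call on 1425922_a_at (adjusted p = 0.123). The AGP14 values for serum against 2i cross the division of the lys control, so genotype and that division cannot be told apart in them. KO against WT for serum against 2i, and the Mycn value for LIF removal, do not mix the division with genotype.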

How the results depend on the processing

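Of 44 member results called, 25 kept their direction and call in every setting tried, further probe sets aside, and 4 changed sign on a further probe set. Among results not called, Mycl with MEK inhibitor against serum in KO turned there with a call. Mycn in the same contrast changed sign without a call on probe set 1425922_a_at, in KO and in WT. Each group has 2 arrays, and the values hold no count or background signal, so the depth is unknown. The causes of the changes below were not tested, except that fits with only the compared arrays had fewer residual degrees of freedom and left-out fits fewer arrays. All values are limma's adjusted p unless called counts or differences.

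With quantile normalization, calls were gained for Mycn in WT with MEK inhibitor against serum (0.0260), Myc in AGP14 against KO in 2i (0.0273), Mycn in AGP14 against WT without LIF (0.0365) and Mycn in EpiLC day 2 against WT 2i (0.0247). Max lost its calls in 2i for AGP14 against KO (0.113) and against WT (0.504), and Mycn its difference between AGP14 and KO for LIF removal (0.0510). With the mean of probe sets, Mycn lost its calls for serum against 2i in AGP14 (0.171), LIF removal in KO (0.225), MEK inhibitor against 2i in KO (0.0718), AGP14 against KO in 2i (0.209) and without LIF (0.0628), and AGP14 against WT in 2i (0.262). It also lost the differences of AGP14 from WT (0.285) and from KO (0.251) for serum against 2i, and from KO for LIF removal (0.789). Without the intensity trend, the Myc difference between KO and WT for serum against 2i was lost (0.0538), as was the Mycn difference between AGP14 and KO for LIF removal (0.205). With dim genes left out, calls were gained for Mycn in WT LIF removal (0.0459), Myc in AGP14 against KO in 2i (0.0436) and Mycn in AGP14 against WT without LIF (0.0452).

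The replicate block as a single fixed column gained Myc in AGP14 against KO in 2i (0.0357). As a random block within genotype it gained Mycn in WT LIF removal (0.0128), Mycn in WT with MEK inhibitor against serum (0.0234), Myc in AGP14 against KO in 2i (0.0498), Mycn in AGP14 against WT without LIF (0.0401), Mycl in EpiLC day 3 against day 2 (0.0466) and the Max difference between AGP14 and KO for serum against 2i (0.0403). As fixed columns within genotype it gained Mycn in WT for LIF removal (0.00288) and for MEK inhibitor against serum (0.00889), and the same Max difference (0.0375). The pairing changed no other call of a member.

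With only the arrays compared, calls were lost for Max in WT serum against 2i (0.107), Mycn in KO LIF removal (0.237), Mycl (0.0744) and Max (0.279) in WT with MEK inhibitor against 2i, Myc (0.0968), Mycl (0.0900) and Max (0.237) in the same contrast in KO, Myc in KO against WT in 2i (0.196), Max in AGP14 against WT in 2i (0.172), the Myc difference between KO and WT for serum against 2i (0.208) and the Mycn difference between AGP14 and KO for LIF removal (0.223). Calls were gained for Mycl in AGP14 LIF removal (0.0465), Mycn in AGP14 against WT without LIF (0.0238) and Mycl in EpiLC day 3 against day 2 (0.00195).

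On the further Mycl probe set 1422088_at calls were lost for serum against 2i in WT (0.102) and KO (0.903), AGP14 against KO (0.0509) and WT (0.141) in 2i, and EpiLC day 2 (0.0629), and MEK inhibitor against serum in KO reversed (difference 1.22, 0.00439). On 1422087_at they were lost for serum against 2i in WT (0.304) and KO (0.161), MEK inhibitor against 2i in WT (0.106) and KO (0.129), AGP14 against KO (0.405) and WT (0.633) in 2i, and EpiLC day 2 (0.314). On the dim Mycn probe set 1425923_at they were lost for serum against 2i in WT (0.886) and KO (0.388), LIF removal in KO (0.835), MEK inhibitor against 2i in WT (0.774), AGP14 against KO in 2i (0.270) and without LIF (0.669), AGP14 against WT in 2i (0.480) and EpiLC day 3 against day 2 (0.869). There the signs of serum against 2i in AGP14 (difference -0.54, 0.731) and MEK inhibitor against 2i in KO (0.599) turned. On 1425922_a_at, Mycn in WT LIF removal was gained (0.0270), and AGP14 against KO (difference -0.18, 0.572) and against WT (0.881) in 2i turned sign without a call. The genotype differences were lost on every further probe set where they had been called. For serum against 2i, Mycl gave 0.298 and 0.770 for AGP14 against WT and 0.894 and 0.626 for AGP14 against KO, on 1422088_at and 1422087_at in that order. Mycn gave 0.277 and 0.734 against WT and 0.902 and 0.423 against KO, on 1425922_a_at and 1425923_at in that order, and 0.123 and 1.000 against KO for LIF removal.

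Counts of Myc-activated targets moved by more than 1.5 times as follows. In AGP14 serum against 2i, 21 rose with the fixed block and 1 fell with the mean of probe sets. In WT, 8 rose with only the arrays compared and 3 fell with the mean of probe sets. With MEK inhibitor against serum in KO, 3 rose with quantile normalization, 3 with the mean of probe sets and 2 with only the arrays compared, while 8 fell with quantile normalization, 8 with the random block and 9 with the fixed block. In WT, 2 rose and 1 fell with only the arrays compared. In EpiLC day 3 against day 2, 1 rose with quantile normalization and 1 with the mean of probe sets. In the Max and Mlx network, 1 rose in AGP14 serum against 2i with the fixed block, 1 rose in KO with either block and 2 fell in KO with the mean of probe sets. In KO with MEK inhibitor, 2 rose and 1 fell with quantile normalization.

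Leaving out 1 array at a time gave these ranges. Myc ranged over 0.0293 to 0.453 in AGP14 against KO in 2i and over 0.0118 to 0.108 for the difference between KO and WT in serum against 2i. Max ranged over 0.0136 to 0.0645 in AGP14 against KO in 2i, 0.0176 to 0.326 in AGP14 against WT in 2i, 0.0758 to 0.250 in KO and 0.00908 to 0.202 in WT with MEK inhibitor against 2i, and 0.00139 to 0.0676 in WT serum against 2i. Mycl ranged over 0.00119 to 0.927 in KO against WT in 2i and over 0.0191 to 0.914 for the difference between KO and WT in serum against 2i. Mycn ranged over 0.000248 to 0.0832 in KO LIF removal, 0.00855 to 0.735 in KO against WT without LIF and 0.0463 to 0.391 in WT with MEK inhibitor against serum. Activated targets that rose numbered 7 to 12 in AGP14 serum against 2i, 3 to 4 in KO and 3 to 6 in WT with MEK inhibitor against serum, and 0 to 1 in EpiLC day 3 against day 2. Those that fell numbered 4 to 8 in WT with MEK inhibitor and 9 to 13 in EpiLC day 3. In the Max and Mlx network, KO serum against 2i had 0 to 1 rising and 2 to 3 falling, WT had 2 to 4 falling, KO with MEK inhibitor had 2 to 3 rising and WT had 0 to 1 falling.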
